A study of Mus musculus with 4 samples.

Results

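The comparison described here is that of radiation among prostate cell cultures labelled BuOE: 1 library of irradiated mice labelled BuOE against 1 library of unirradiated mice labelled BuOE. Its members are the 14365 genes, of 56748 gene IDs in the count table, whose level averaged 1 CPM (a count per 1000000 counts of the library) or more over the 4 libraries of the series. The other 2 libraries, labelled PBS (phosphate-buffered saline) without and with radiation, form the PBS arm, and its ratio is given beside that of the BuOE arm. All 4 libraries came from prostates of male C57BL/6 mice (genotype spelled CB57BL/6 in the labels) that were 8 to 10 weeks old. Irradiated mice received 37.5 Gy to the pelvis in 7.5 Gy fractions within 5 days, at 1.2 Gy per minute, and unirradiated mice none. The tissue was digested with collagenase and the cells were cultured in serum-containing medium, and the labels call them fibroblasts. BuOE occurs in the chemical name of BMX-001, which the series title names. BMX-001 is a manganese porphyrin and acts like the enzyme superoxide dismutase. The title speaks of its use 3 weeks after radiation, but the labels of the samples state neither its dose nor its schedule, nor whether it went to the animals or the cultures, nor how many animals stand behind a library.

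Ionising radiation breaks DNA, and the broken ends activate the transcription factor p53, which switches on genes of cell cycle arrest, repair and cell death. In the weeks after exposure, tissue fibroblasts can become collagen-secreting, contractile cells under the influence of TGF-beta, which is the basis of radiation fibrosis. Superoxide is one of the reactive oxygen species formed after irradiation, and superoxide dismutases convert it to hydrogen peroxide. The comparison addresses which transcripts differed between cultures from irradiated and unirradiated mice when both carried the BuOE label.

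The deposited counts summed to 28856043 in the BuOE library, 24996835 in the irradiated BuOE library, 29744664 in the PBS library and 35915448 in the irradiated PBS library. Each ratio is a log2 ratio of scaled CPM, irradiated over unirradiated, so that 1 is a 2-fold higher and -1 a 2-fold lower level. Levels are listed in the order BuOE, irradiated BuOE, PBS and irradiated PBS. With 1 library a side no ratio has a replicate check or a test, and the range printed with a ratio is a 95% exact binomial (Clopper-Pearson) interval that covers counting error only. A value in parentheses after a gene is its log2 ratio in the BuOE arm. Fibroblast genes were present in every library, for example Pdgfra, a growth factor receptor of mesenchymal cells, at 709, 1048, 766 and 893 CPM. Epithelial genes were too: the cell adhesion gene Epcam stood at 386, 485, 290.4 and 318 CPM and the keratin gene Krt8 at 1050.3, 868, 934 and 789 CPM, so none of the libraries was free of epithelial RNA. In bulk RNA, fewer cells of a type and less RNA per cell cannot be told apart. The unirradiated BuOE library stood apart in neuronal genes and the irradiated BuOE library in mitochondrially encoded transcripts, in the lists described next.

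In the BuOE arm 326 of the 14365 genes (2.27%) were higher by 2-fold or more with radiation, and 709 (4.94%) were lower by as much. The split leaned the other way in the PBS arm, where 807 genes (5.62%) were higher and 146 (1.02%) lower by that measure. The median ratio of all genes in the BuOE arm was -0.03, and 90% of them lay between the 5th percentile at -0.99 and the 95th at 0.75. In that arm 6637 genes had a ratio above 0 and 7728 below 0. Counts of list members below are to be read beside these numbers and the shares of 2.27% and 4.94%. Of the 709 lower genes, 579 (81.7%) had their highest level of all 4 libraries in the unirradiated BuOE library, whereas 21.9% of all genes did. These genes were chosen by a level at least 2-fold above the irradiated BuOE library, which by itself raises the share of 81.7%. In 270 of the 709, the unirradiated BuOE library was at least 2-fold above each of the other 3. Without those the count of lower genes was 439. Only 118 of the 709 were at least 2-fold below each other library in the irradiated BuOE library. Of the 326 higher genes, 279 (85.6%) were highest in the irradiated BuOE library, against 28.4% of all genes. Their choice by a higher level in that library raises the share of 85.6% in the same way. In 157 of the 326, the irradiated BuOE library exceeded each other library at least 2-fold. Leaving those out, 169 remained higher. Scaled by library size alone, the counts were 232 higher and 855 lower, with the median of all genes at -0.15, and with upper-quartile factors they were 467 and 591, with a median of 0.08.

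**Figure D1:**
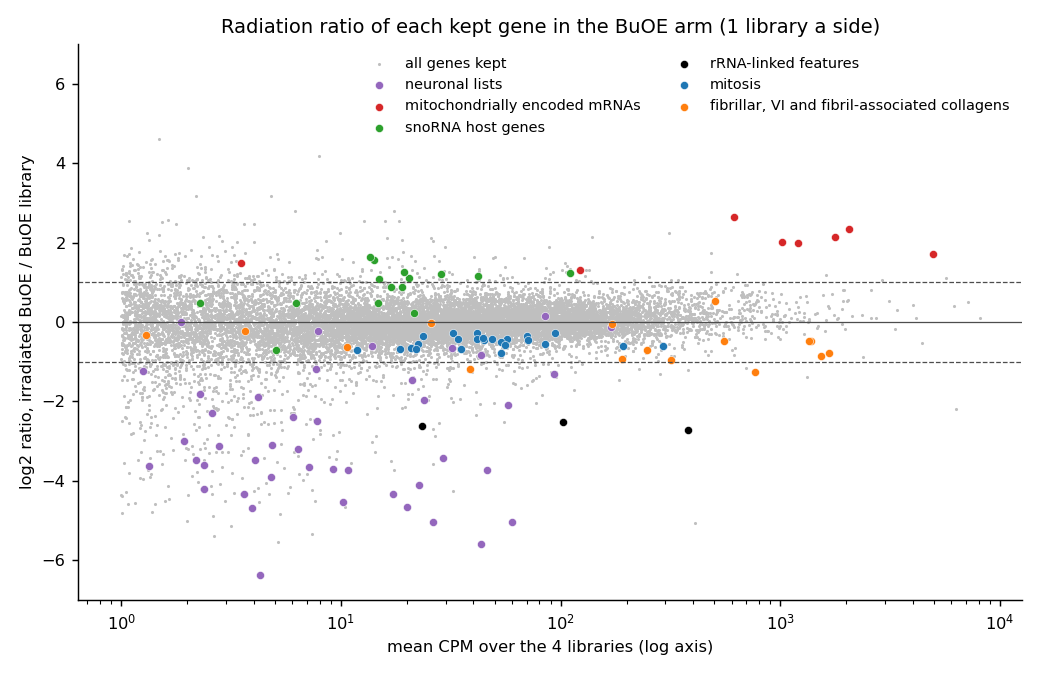
Log2 ratio of the irradiated BuOE to the BuOE library (y axis) against the mean CPM over the 4 libraries (x axis, log scale) for each of the 14365 genes, with members of some gene lists in colour and dashed lines at a 2-fold difference. Neuronal genes form most of the coloured points below -2, the mitochondrially encoded mRNAs lie between 1.30 and 2.65, and the mitosis genes all lie below 0.

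Genes of the autonomic nervous system were among those with the lowest ratios. Vip encodes vasoactive intestinal peptide, a transmitter of parasympathetic nerves of the pelvic organs, and stood at 199, 5.97, 2.62 and 33.2 CPM. Nos1, the neuronal nitric oxide synthase, stood at 150.3, 3.09, 3.58 and 17 CPM. For both genes the unirradiated BuOE library was far above the other 3, and the irradiated BuOE library was nearest to the unirradiated PBS library. Their ratios were -5.04 (-5.31 to -4.82) for Vip and -5.58 (-5.96 to -5.28) for Nos1. Prph, which encodes the peripheral neuron filament peripherin, was at 81.7, 2.43, 0.783 and 20.6 CPM, with a ratio of -5.03 (-5.47 to -4.70). Gap43, a protein of growing axons, was at 48.1, 2.35, 2.89 and 15.4 CPM, with a ratio of -4.32 (-4.76 to -3.97). Among the 15 genes of lowest ratio with a mean level of 10 CPM or more were also the transporter gene Slc7a14 (-4.66), the synaptic vesicle genes Sv2c (-4.65), Rab3c (-4.52), Syt4 (-4.11) and Syp (-3.74), the motor protein gene Kif5a (-3.73), the tubulin gene Tubb3 (-3.72), Vat1l (-3.57) and the actin-binding protein gene Avil (-3.54). The remaining 2 were the secretory genes Sbp and Spink1.

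The neuronal lists showed the same pattern over most of their members. Of 14 genes of the neuronal cytoskeleton and growth, 12 were at least 2-fold lower, against 4.94% of all genes. None of the 14 had a ratio above 0, with a median of -3.52 beside -0.03 over all genes. Their summed level was 646, 137, 197 and 246 CPM. Of 15 genes of vesicles and synapses, 13 were at least 2-fold lower, the median was -3.64 and the summed level 387, 75.7, 54.6 and 152 CPM. Of 14 genes of autonomic transmitters and identity, 11 were at least 2-fold lower, with a median of -3.06 (-1.34 over members averaging 10 CPM or more) and a summed level of 842, 342, 267 and 368 CPM. The unirradiated BuOE library was the highest of the 4 for 13, 14 and 8 genes of these lists. The vesicular acetylcholine transporter gene Slc18a3 was at 15.7, 0.123, 0.0681 and 1.24 CPM, which rests on 3 counts in the irradiated BuOE library and gives a ratio of -6.37 (-9.27 to -5.43). It averaged 1 CPM or more only through the unirradiated BuOE library. A member that passed the limit in this way could only be lower. The counts of 12, 13 and 11 lower members and the list medians include any such member. How many members of the 3 lists passed in this way was not counted. The noradrenaline enzyme genes Th and Dbh had ratios of -3.13 and -3.20, and the receptor gene Ret, needed by enteric and autonomic neurons, -2.10. Npy, a transmitter of sympathetic nerves, was an exception at 126, 141, 14.8 and 57.8 CPM and a ratio of 0.16, as was Rbfox3 (-0.01). In the PBS arm the medians of the 3 lists were 2.46, 2.60 and 2.80. No neuronal gene of these lists was at 0 in either BuOE library, but Syt1, Th and Rbfox3 were at 0 in the PBS library.

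Schwann cells wrap the axons of peripheral nerves, and their markers were lower by less. Of their markers, 10 of 11 had a ratio below 0 and 4 were at least 2-fold lower, with a median of -0.83 and a summed level of 517, 281, 144 and 314 CPM. The nerve growth factor receptor gene Ngfr was at 179, 49.7, 25.2 and 76.5 CPM (-1.84, -1.94 to -1.76). The lineage factor Sox10 was at 50.6, 26.4, 6.50 and 25.9 CPM (-0.94, -1.07 to -0.80). The myelin gene Mbp was the exception, at a ratio of 0.22. Pericyte markers were below 0 in 7 of 7, with a median of -0.65 and none past 2-fold, among them Pdgfrb (-0.65) and Rgs5 (-0.68).

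Secretory genes of the prostate and seminal vesicle went in opposite directions. Sbp, the spermine-binding protein, was at 428, 12.8, 757 and 439 CPM, with a ratio of -5.06 (-5.24 to -4.91). Spink1, a trypsin inhibitor of the accessory glands, was at 51.3, 2.63, 18.9 and 56.1 CPM, with a ratio of -4.25 (-4.67 to -3.92). Both were lowest in the irradiated BuOE library, by a wide margin. Pbsn, the androgen-dependent probasin, was instead highest there, at 7.26, 50.7, 2.69 and 9.46 CPM (2.79, 2.60 to 3.02), as was Msmb, a secreted prostate protein, at 7.52, 44.5, 2.04 and 9.09 CPM (2.55, 2.36 to 2.78). The seminal vesicle gene Svs2 was at 214, 467, 48.1 and 286 CPM (1.13, 1.08 to 1.17). The defensin gene Defb50 was at 11.2 and 47.5 CPM in the BuOE arm (2.07, 1.90 to 2.26). The prostate transglutaminase gene Tgm4 was at 45.7 and 86.4 CPM (0.92, 0.82 to 1.02). Of 11 measured members of the list, 9 had a ratio above 0, 4 were past 2-fold upward and 2 past 2-fold downward.

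Markers of the remaining cell types were mixed. Epithelial markers had a median of 0.07, with Cldn4 at 0.76 and Krt8 at -0.28, and that median took the other sign when scaled by library size alone. Basal epithelial markers had a median of -0.50, with Krt14 at -0.79 and Krt5 at -0.48, while Krt17 was at 0.26. The injury keratin gene Krt6a was at 112, 27.2, 127 and 41.8 CPM, a ratio of -2.04 (-2.17 to -1.92), and the cornified envelope gene Sprr1a at 190.4, 907, 36.2 and 111 CPM, a ratio of 2.25 (2.21 to 2.29). Endothelial markers had a median of 0.10, from Vwf (-0.65) to Esam (0.50). Macrophage markers had a median of 0.02 with members on both sides: the complement genes C1qa (-0.78), C1qb (-0.64) and C1qc (-0.96) were lower, and Cd68 (0.55), Ptprc (0.51) and Lyz2 (0.50) higher. Both medians took the other sign when scaled by library size alone. None of 7 lymphocyte markers reached 1 CPM. Fibroblast markers split, with Dcn (0.59), Lum (0.72) and Pdgfra (0.56) higher and Thy1 (-1.16), Pi16 (-1.12) and Col1a1 (-0.86) lower in the irradiated library. Their median was -0.12, but 0.23 over members averaging 10 CPM or more. In the PBS arm all 10 were above 0, with a median of 0.43. Adipocyte genes summed to 491, 467, 1981 and 496 CPM. Of 11 measured, 8 had a ratio above 0 and 5 were at least 2-fold higher, among them the nuclear receptor gene Pparg at 8.38 and 18.9 CPM (1.17, 0.95 to 1.4). The lipid droplet gene Plin1 was at 0.693 and 2.30 CPM (1.64, 0.99 to 2.53). Cfd had 1 count in the BuOE library, so that its ratio of 4.17 has a range from 3.15 to 11.05. Adipoq had 0 and 4 counts and was among the 5 through a ratio of 1.79 that rests on the prior count. With 3 counts (0.0990 CPM) in place of 0 in the BuOE library its log2 ratio was 0.73, short of 2-fold. That value leaves out the counting error of the 4 counts, so it is not a lower limit. The median of the list was 0.89, or 0.73 with Adipoq at that value. At a mean level of 10 CPM or more that median was 0.15. Cfd, Adipoq and Cidec, 3 of the 5, averaged 1 CPM or more through the PBS library, where they stood at 29.5, 5.76 and 7.05 CPM, and Plin1 was also highest there, at 28.9 CPM. The part of any of these cell types in the ratios of other genes was not tested.

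**Figure D2:**
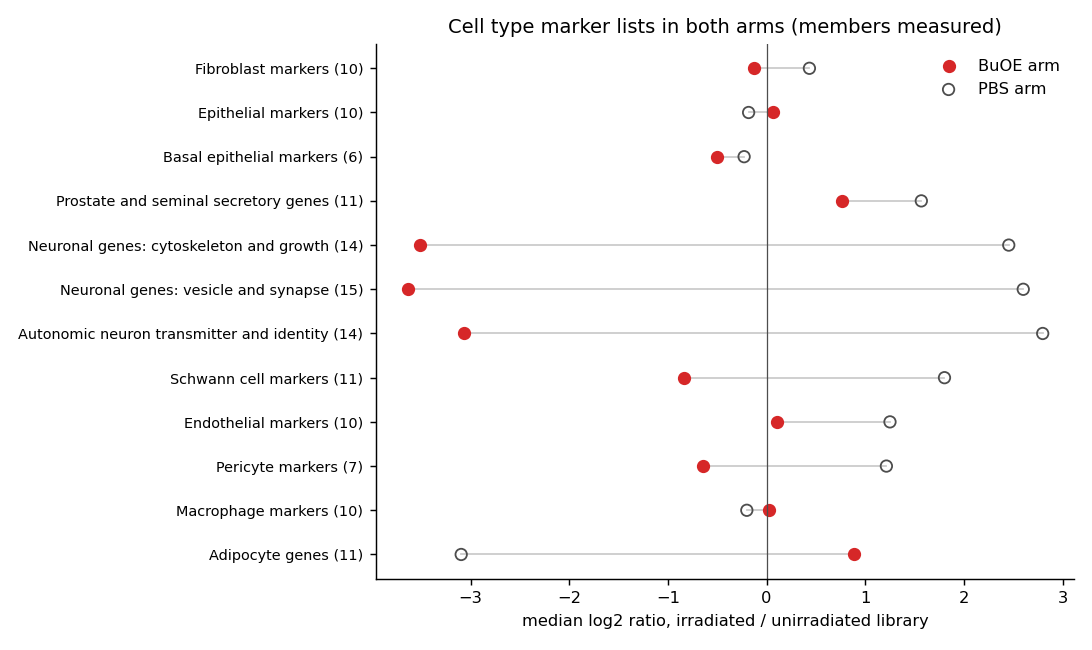
Median log2 ratio of irradiated to unirradiated library (x axis) for 12 cell type marker lists (y axis, with the number of members measured), filled points for the BuOE arm and open points for the PBS arm, 1 library a side. The 3 neuronal lists lie at -3.64 to -3.06 in the BuOE arm and at 2.46 to 2.80 in the PBS arm, and adipocyte genes at 0.89 and -3.09.

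The mitochondrial genome encodes subunits of the respiratory chain, which are copied as long transcripts and cut into single mRNAs, along with the RNAs of the mitochondrial ribosome. Of its 13 mRNAs, 8 passed the limit of 1 CPM, and all 8 exceeded 2-fold in the irradiated BuOE library, with a median ratio of 2.00 beside -0.03 over all genes. The complex I gene mt-Nd2 was at 266, 1669.9, 153 and 380.5 CPM (2.65, 2.61 to 2.68). The cytochrome b gene mt-Cytb was at 1009.8, 5099, 579.7 and 1492 CPM (2.34, 2.32 to 2.35). The complex IV gene mt-Co1 was at 3255, 10675, 1940.2 and 3855 CPM (1.71, 1.70 to 1.72). The irradiated BuOE library was the highest of the 4 for every one of the 8, with ratios of 2.13 for mt-Nd5, 2.00 for mt-Nd4 and 1.99 for mt-Nd1 and the lowest at mt-Nd6 (1.30), the gene read from the other strand. In the PBS arm 6 of the 8 were at least 2-fold higher, with a median of 1.13. As a share of all counts the 13 mRNAs took 0.725% (0.722 to 0.728) of the BuOE library and 2.64% (2.63 to 2.64) of the irradiated BuOE library.

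The mitochondrial ribosomal RNAs went the other way. The small subunit RNA mt-Rnr1 was at 87.2, 29.4, 45.7 and 85.3 CPM (-1.57, -1.69 to -1.45). The large subunit RNA mt-Rnr2 was at 114, 42.6, 51.8 and 101 CPM (-1.42, -1.52 to -1.32). Both were lowest in the irradiated BuOE library. These 2 genes were singled out after their values were seen. Respiratory chain subunits encoded in the nucleus showed no such shift. Of 36 measured, 21 had a ratio above 0, none passed 2-fold in either direction, and the median was 0.03, below 0 when scaled by library size alone. Factors of mitochondrial transcription and RNA decay had a median of -0.08, above 0 with upper-quartile factors. Among them the transcription factor gene Tfam was at 24.1 and 23.7 CPM in the BuOE arm (-0.02). The RNA polymerase gene Polrmt was at 21.7 and 16.7 CPM (-0.38). The mRNA-stabilising Lrpprc was at 65.8 and 47.6 CPM (-0.47).

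Several non-coding RNAs were higher in the irradiated BuOE library, while the medians of their annotation classes lay closer to 0. Long intergenic RNAs had a median of 0.03, with 11 of 167 at least 2-fold higher and 9 lower. Antisense RNAs had a median of 0.02 (9 of 143 higher, 6 lower) and the class called processed transcript one of 0.14 (14 of 127 higher, 4 lower). Host genes of small nucleolar RNAs (snoRNAs) carry guides of ribosomal RNA modification in their introns, and their spliced transcripts are mostly degraded during translation. Of these host genes, 14 of 15 had a ratio above 0 and 8 were at least 2-fold higher, against 2.27% of all genes. Their median was 1.09, against 0.10 in the PBS arm. The irradiated BuOE library was the highest of the 4 for 12 of them. Gas5 was at 77.1, 182, 85.3 and 94.9 CPM (1.24, 1.17 to 1.31). Zfas1 was at 29.9, 66.5, 35.1 and 36.2 CPM (1.15, 1.04 to 1.28). Epb41l4aos was at 9.04, 28.4, 7.70 and 9.09 CPM (1.65, 1.45 to 1.86). All 3 had similar levels in the other 3 libraries. Snhg1 (1.21), Snhg6 (1.11), Snhg12 (1.26), Snhg15 (1.09) and 1810032O08Rik (1.56), a synonym of Snhg16 in RefSeq, were also past 2-fold, and Snhg11 was the only one below 0 (-0.71). The nuclear RNA Malat1 was at 4488, 9655, 3900.0 and 4566 CPM (1.11, 1.10 to 1.11). Neat1, the scaffold of paraspeckles, was at 611, 939, 699 and 481 CPM (0.62, 0.59 to 0.65). The small Cajal body RNA Scarna2 was at 72.3, 173, 65.0 and 60.6 CPM (1.25, 1.18 to 1.33). The snoRNA host list and these 3 RNAs were chosen after their values were seen.

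Features that can take up reads of cytosolic ribosomal RNA were lower. Lars2, a mitochondrial leucyl-tRNA synthetase gene with a stretch similar to ribosomal RNA, was at 706, 108, 388 and 314 CPM (-2.71, -2.77 to -2.65). Gm15564 (-2.61) and Mir6236 (-2.52) had similar ratios, and the 3 features summed to 924, 145, 533 and 419 CPM. These 3 were chosen after their values were seen. The most abundant gene ID without a symbol was at 8683 CPM in the BuOE library and 1893 CPM in the irradiated BuOE library, against 8827 and 5737 CPM in the PBS arm. Among 9737 protein-coding genes averaging 10 CPM or more, the ratio differed only slightly with transcript length. Medians were 0.06 in the shortest and -0.04 in the longest of 6 length classes, against -0.08 and 0.09 in the PBS arm. These features differed between the same libraries as the mitochondrial and snoRNA host transcripts, and the part of ribosomal RNA reads in those ratios was not tested.

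**Figure D3:**
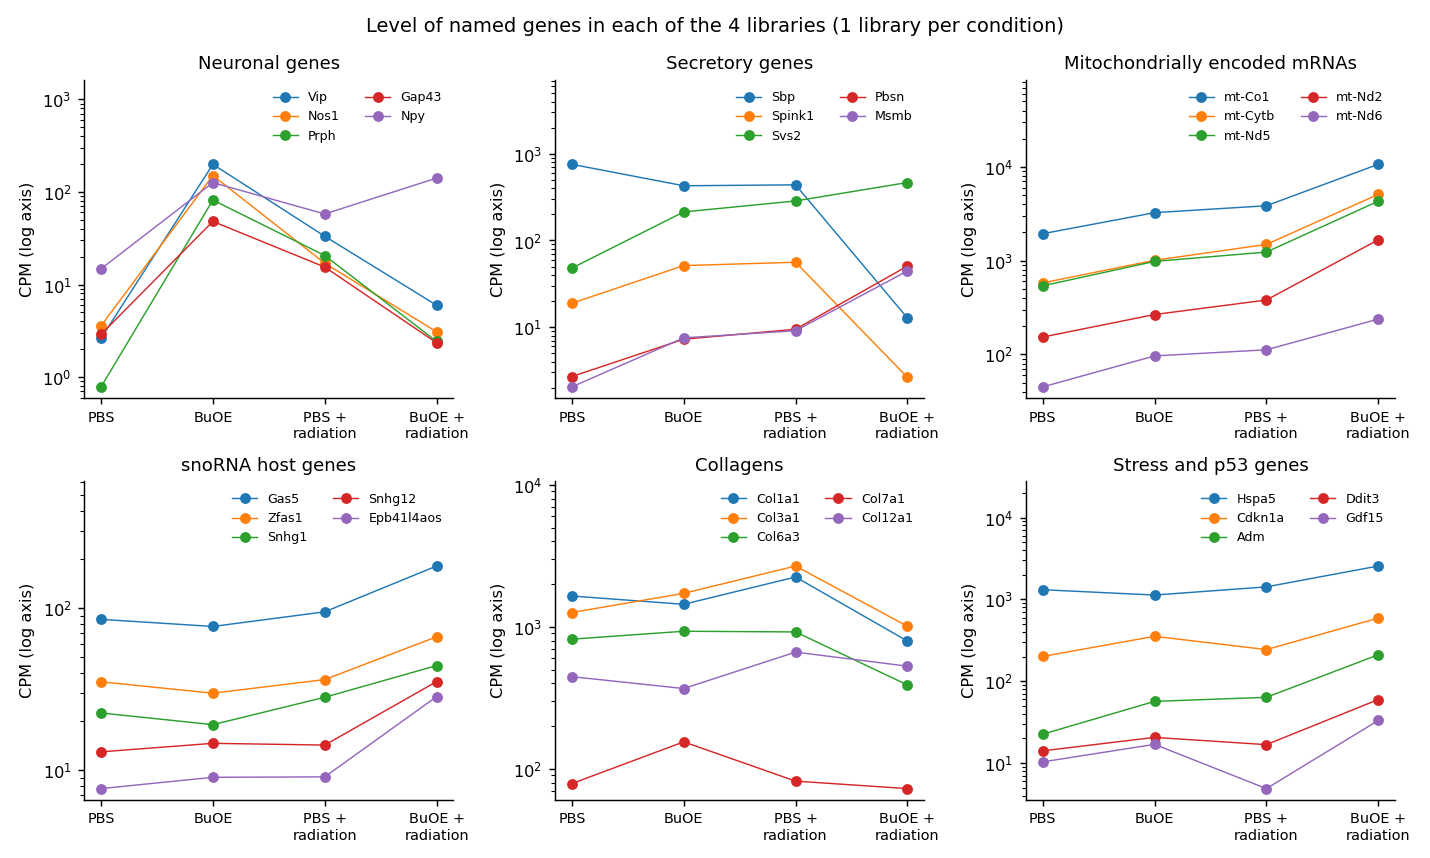
CPM (y axes, log scale) of 30 genes in 6 panels in each of the 4 libraries (x axes), 1 library per condition, with lines that join the points of a gene and stand for no time course. Vip, Nos1, Prph and Gap43 peak in the BuOE library, the mitochondrially encoded mRNAs and the 5 snoRNA host genes shown are highest in the irradiated BuOE library, and Sbp and Spink1 are lowest there.

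p53 target genes were mostly higher in the irradiated BuOE library, with none past 2-fold. Cdkn1a, which encodes the cell cycle inhibitor p21, was at 354, 590.5, 201 and 244 CPM (0.74, 0.70 to 0.77). Its levels in both BuOE libraries exceeded those in the PBS libraries. Gdf15, a secreted stress cytokine, was at 17, 33.2, 10.4 and 4.88 CPM (0.97, 0.81 to 1.13), and its ratio in the PBS arm was -1.07. Mdm2, the ubiquitin ligase that limits p53, was at 140.2, 195, 152 and 129.9 CPM (0.48, 0.42 to 0.54). Among targets in cell cycle control and feedback, 14 of 18 had a ratio above 0, with a median of 0.41 (-0.02 in the PBS arm), including the kinase gene Plk2 (0.78) and the antioxidant sestrin gene Sesn2 (0.59). Among targets in apoptosis and repair, 14 of 16 were above 0, with a median of 0.48 (0.12 in the PBS arm). The highest was the death receptor gene Eda2r at 25.7, 47.4, 19.5 and 21.3 CPM (0.88, 0.75 to 1.02). The BCL2-family antagonist gene Pmaip1 was at 43.5, 77.0, 22.6 and 29.7 CPM (0.82, 0.72 to 0.93). The irradiated BuOE library was the highest of the 4 for 26 of these 34 genes. Outside the p53 lists, the cell cycle inhibitor genes Cdkn1b (0.69, 0.60 to 0.77) and Cdkn1c (0.90, 0.58 to 1.25) were higher and the cyclin gene Ccnd1 (-0.47, -0.52 to -0.41) lower. Their list was mixed, with 6 of 9 members above 0 and a median of 0.12. In it the cyclin gene Ccnd2 (0.47) was higher and the inhibitor gene Cdkn2c (-0.33) lower.

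Mitosis genes were lower without exception. Mki67, which encodes the proliferation antigen Ki-67, was at 169, 112, 446 and 438 CPM (-0.59, -0.66 to -0.52). Top2a, which untangles chromosomes, was at 114, 75.4, 299 and 276 CPM (-0.60, -0.68 to -0.52). The cyclin gene Ccna2 was at 31.0, 18.1, 87.9 and 77.2 CPM (-0.78, -0.94 to -0.61). All 3 were lowest in the irradiated BuOE library, and both PBS libraries lay above both BuOE libraries. All 24 mitosis genes had a ratio below 0, from -0.78 to -0.26, with a median of -0.48 against -0.21 in the PBS arm and none past 2-fold. Their summed level was 866, 609, 2328 and 2058 CPM. DNA replication genes differed less: 17 of 24 were below 0, with a median of -0.18 against -0.22 in the PBS arm. The helicase subunit gene Mcm2 was at 53.4, 41.4, 118 and 82.2 CPM (-0.37, -0.48 to -0.25), while the licensing factor gene Cdt1 (0.30, 0.16 to 0.45) and the ribonucleotide reductase gene Rrm2 (0.23, 0.16 to 0.30) were above 0. Among genes of damage signalling and repair, 17 of 19 were below 0, with a median of -0.23. Among them were Brca1 (-0.59, -0.82 to -0.36), which acts in recombination, and Xrcc5 (-0.65, -0.82 to -0.50), which encodes the Ku80 end-joining subunit.

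Promoters of mitosis genes often carry the cell cycle homology region (CHR) and CCAAT boxes, bound by the DREAM complex and by NF-Y. Promoter sequences were taken from RefSeq (GRCm38.p6), from 250 bases before to 50 after the start of a gene, and searched on both strands. They exist for 10720 of the kept genes. The letters TTTGAA of the CHR were found in 14 of 19 mitosis genes with a promoter, against 14.3% of all kept genes with one, and CCAAT in 17 of 19, against 42.5%. The median ratio was -0.46 in mitosis genes with TTTGAA and -0.46 in those without. A match is a description of the letters and not of binding. The promoter of Top2a (chr11:99024140-99024439, minus strand) is shown as that of an abundant member of the list, with both matches to TTTGAA or its reverse complement in capitals.
Top2a: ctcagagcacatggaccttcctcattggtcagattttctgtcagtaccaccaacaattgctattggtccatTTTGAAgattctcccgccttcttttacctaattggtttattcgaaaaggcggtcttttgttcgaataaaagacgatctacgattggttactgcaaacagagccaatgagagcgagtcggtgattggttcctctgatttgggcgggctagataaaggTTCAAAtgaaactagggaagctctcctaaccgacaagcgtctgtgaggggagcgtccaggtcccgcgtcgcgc

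Genes of collagens, the main fibres of scar tissue, were mostly lower in the irradiated BuOE library. Col1a1, a chain of type I collagen, was at 1444, 795, 1652 and 2249 CPM (-0.86, -0.88 to -0.84). Col3a1, the type III chain, was at 1725, 1012, 1264 and 2687 CPM (-0.77, -0.79 to -0.75). Both were highest in the irradiated PBS library and lowest in the irradiated BuOE library, so that the arms differed in direction, with PBS-arm ratios of 0.44 and 1.09. Col1a2, the partner chain of Col1a1, had a ratio of -0.48. None of the 9 fibrillar collagens had a ratio above 0, and the median was -0.48. The lowest was Col27a1 at 60.4, 26.7, 33.1 and 34.6 CPM (-1.18, -1.31 to -1.05). Collagen VI and the fibril-associated collagens had a median of -0.64, with 6 of 7 below 0. Col6a3, the large chain of the beaded filaments around cells, was at 933, 390.4, 820.4 and 922 CPM (-1.26, -1.29 to -1.22), while Col12a1 was at 368, 529, 446 and 665 CPM (0.52, 0.49 to 0.56). Among basement membrane and network collagens, 9 of 12 were below 0 and 3 at least 2-fold lower, with a median of -0.45. Those were Col7a1, which forms the anchoring fibrils of epithelia (-1.09, -1.17 to -1.01), Col8a1 (-1.01, -1.12 to -0.90) and Col10a1 (-1.76, -2.77 to -1.04), of which the last was low in all 4 libraries. The minor basement membrane chains Col4a3 (0.30), Col4a4 (0.32) and Col4a5 (0.24) were the 3 members above 0.

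Enzymes that process collagen went both ways, with 9 of 21 above 0. Of the prolyl hydroxylase genes, P4ha1 (0.89, 0.85 to 0.93), P4ha2 (0.62) and P4hb (0.50) were higher, and P4ha3 (-0.50) and P3h1 (-0.19) lower. Bmp1, which cleaves the C-terminal propeptide of procollagen, was at 315, 171, 296 and 301 CPM (-0.88, -0.93 to -0.82) and its enhancer genes Pcolce and Pcolce2 were at ratios of -0.40 and 0.18. The cross-linking genes Lox (0.07), Loxl1 (0.03) and Loxl2 (-0.02) and the collagen chaperone gene Serpinh1 (-0.05) lay near 0. Among matrix glycoproteins, Ecm1 was at 402 and 972 CPM in the BuOE arm (1.27, 1.24 to 1.30). Efemp1, a fibulin, was at 12.5, 26.1, 64.7 and 47.1 CPM (1.06, 0.88 to 1.25). Tnc (-0.89), Smoc2 (-0.72), Postn (-0.69) and Thbs2 (-0.65) were lower, and fibronectin gene Fn1 (0.09) near 0. Among proteoglycans, which coat and space collagen fibrils, 6 of 9 were above 0, with a median of 0.18. Dcn was at 882, 1324, 511 and 994 CPM (0.59, 0.56 to 0.61). The only 2 members past 2-fold were lower, Aspn (-1.55) and Fmod (-1.19).

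TGF-beta ligand, receptor and latency genes had a median of -0.19, and 8 of 13 were below 0, a share near that over all genes (7728 of 14365). Tgfb3 was at 89.7, 52.1, 94.6 and 97.7 CPM (-0.78, -0.88 to -0.69). Tgfb1 was at 271, 219.6, 287 and 281 CPM (-0.31, -0.36 to -0.26). The receptor gene Tgfbr1 was at 106, 67.9, 98.2 and 138 CPM (-0.64, -0.73 to -0.56). Target genes did not move as 1 block: Tgfbi (-1.36, -1.48 to -1.24), Cdh2 (-0.83), Snai2 (-0.82) and Pmepa1 (-0.62) were lower, and Ccn2 (0.95, 0.92 to 0.98), Bhlhe40 (0.70) and Smad7 (0.58) higher. Targets of YAP and TEAD, which respond to cell shape and stiffness, were above 0 in 14 of 15, with a median of 0.46 (0.06 in the PBS arm) and 4 at least 2-fold higher. Ccn1 was at 372, 867, 639.8 and 674 CPM (1.22, 1.19 to 1.25). The cardiac ankyrin repeat gene Ankrd1 was at 21, 47.6, 69.7 and 72.8 CPM (1.18, 1.04 to 1.32). The tissue factor gene F3 was at 85.4, 210.4, 81.5 and 142 CPM (1.30, 1.23 to 1.37). Gadd45b, which NF-kB also induces, was at 52.5, 160.5, 24.3 and 36.2 CPM (1.61, 1.53 to 1.70). Contractile genes had a median of 0.30, with 15 of 18 above 0 and the actin-bundling gene Synpo2 (1.08, 0.95 to 1.21) and the integrin gene Itga11 (1.00, 0.82 to 1.19) at 2-fold or more. In the PBS arm the median of these genes was 0.38, with 12 of 18 above 0 and 4 at least 2-fold higher. Acta2, the smooth muscle actin, was at 308, 298, 782 and 845 CPM (-0.05). Its difference between BuOE-labelled and PBS libraries was larger than that with radiation.

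**Figure D4:**
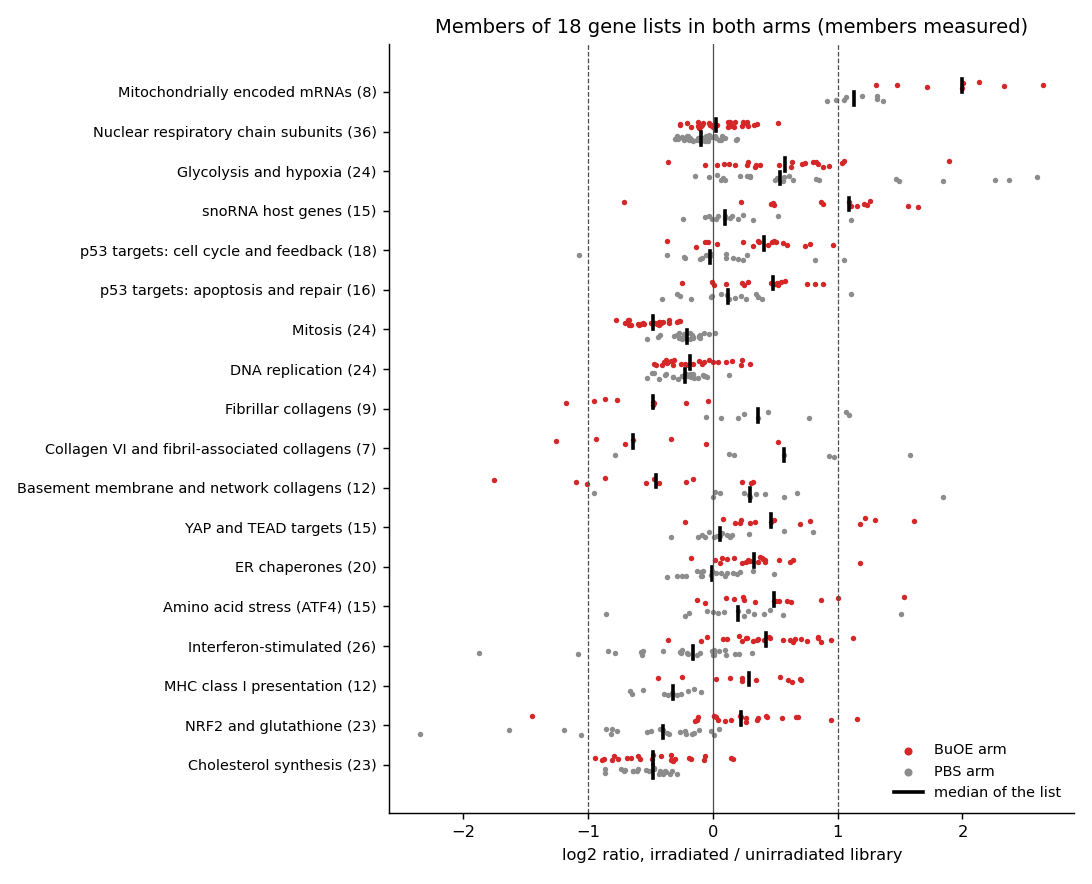
Log2 ratio of irradiated to unirradiated library (x axis) of each measured member of 18 gene lists (y axis, number of members in parentheses), red for the BuOE arm and grey for the PBS arm, with black bars at list medians and dashed lines at 2-fold. Mitosis genes lie wholly below 0 and mitochondrially encoded mRNAs wholly above 1 in the BuOE arm, and the fibrillar collagen medians lie at -0.48 in the BuOE arm and 0.36 in the PBS arm.

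Chaperone genes of the endoplasmic reticulum (ER), which fold secreted proteins, were higher in the irradiated BuOE library in 19 of 20, with a median of 0.33 against -0.01 in the PBS arm. Hspa5, which encodes the main ER chaperone BiP, was at 1129.7, 2557, 1313 and 1422 CPM (1.18, 1.16 to 1.20) and was the only one past 2-fold. Hsp90b1 was at 892, 1372, 1259 and 1412 CPM (0.62, 0.60 to 0.64). For Hspa5 the irradiated BuOE library stood alone, whereas for Hsp90b1 the BuOE library was the low one and the other 3 were alike. In the related response to amino acid shortage, driven by the factor ATF4, 13 of 15 were above 0, with a median of 0.49. Ddit3, which encodes the stress factor CHOP, was at 20.6, 59.8, 14.1 and 16.8 CPM (1.53, 1.4 to 1.67). Atf4 itself was at 257, 396, 208 and 252 CPM (0.62, 0.58 to 0.67). The lipoprotein receptor gene Vldlr was at 82.3, 165, 23.0 and 65.6 CPM (1.00, 0.93 to 1.08). Among heat shock genes the inducible Hspa1a was at 20.8, 53.9, 8.48 and 12.5 CPM (1.37, 1.23 to 1.51) and its near-identical neighbour Hspa1b at a ratio of 0.99. Reads of that pair can be assigned to either gene, and the abundant Hspa8 (0.09) and Hsp90ab1 (0.09) were near 0.

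ER chaperone promoters carry the ER stress response element (ERSE), in which a CCAAT box and CCACG are set apart by a fixed spacer. Searched as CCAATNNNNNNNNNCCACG on both strands, it was found in 8 of 17 genes of the list with a promoter and in 0.149% of all kept genes with one (16 of 10720). The median ratio was 0.30 both with and without a match. The promoter of Hspa5 (chr2:34771840-34772139, plus strand) is shown because Hspa5 had the highest ratio of the list, with the element in capitals. It is followed by an element of each other member with a match, fixed letters in capitals, read along the strand of the match. Hsp90b1 had a second match, which is not shown.
Hspa5: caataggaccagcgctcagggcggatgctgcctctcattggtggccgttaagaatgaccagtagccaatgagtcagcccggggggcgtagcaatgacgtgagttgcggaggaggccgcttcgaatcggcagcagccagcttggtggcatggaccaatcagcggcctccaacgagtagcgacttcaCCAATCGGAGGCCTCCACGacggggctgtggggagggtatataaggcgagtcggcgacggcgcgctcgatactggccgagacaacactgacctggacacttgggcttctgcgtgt
Hsp90b1: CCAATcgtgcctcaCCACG
Pdia6: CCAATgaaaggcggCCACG
Canx: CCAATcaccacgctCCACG
Calr: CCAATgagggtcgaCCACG
Creld2: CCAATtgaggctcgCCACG
Dnajc3: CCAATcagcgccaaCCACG
Syvn1: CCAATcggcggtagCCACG
Apart from Hspa5, their ratios ran from 0.07 for Syvn1 to 0.62 for Hsp90b1, so the same fixed letters stood before genes with ratios from near 0 to 1.18.

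Interferon-stimulated genes were above 0 in 23 of 26, with a median of 0.43, while the PBS arm had a median of -0.16. Ifit3, an antiviral protein that interferon induces, was at 61.3, 133, 92.1 and 53.4 CPM (1.12, 1.04 to 1.20) and was the only member past 2-fold. Irf7, a factor that amplifies interferon output, was at 86.1, 145, 135 and 103 CPM (0.75, 0.68 to 0.83). The antiviral enzyme gene Rsad2 was at 42.9, 76.9, 42.4 and 28.8 CPM (0.84, 0.74 to 0.95). All 3 were highest in the irradiated BuOE library, although for Irf7 the unirradiated PBS library was nearly as high. Genes of MHC class I presentation were above 0 in 10 of 12, with a median of 0.29, and in 0 of 12 in the PBS arm, with a median of -0.32. The light chain gene B2m was at 645, 1053, 613 and 574 CPM (0.71, 0.68 to 0.74). H2-K1 was at 422, 642, 415 and 282 CPM (0.61, 0.57 to 0.64). The peptide transporter gene Tap1 was at 43.4, 70.5, 40.2 and 33.7 CPM (0.70, 0.59 to 0.80). All 3 were highest in the irradiated BuOE library. H2-K1 and H2-D1 are similar in sequence, so reads can be shared between them. The interferon-stimulated response element, searched as GAAANNGAAA on both strands, was found in 12 of 20 genes with a promoter, against 3.76% of all kept genes with one, and the median ratio was 0.45 with and 0.44 without a match. The Ifit3 promoter (chr19:34583279-34583578, plus strand) is shown as that of the highest member, with its 2 matches in capitals, both as the reverse complement.
Ifit3: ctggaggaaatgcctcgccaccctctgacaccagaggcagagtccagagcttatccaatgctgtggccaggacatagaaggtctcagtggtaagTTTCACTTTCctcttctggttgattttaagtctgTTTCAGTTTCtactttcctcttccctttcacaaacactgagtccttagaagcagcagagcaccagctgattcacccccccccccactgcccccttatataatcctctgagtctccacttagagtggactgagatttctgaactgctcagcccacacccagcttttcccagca

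Secreted inflammatory factors were above 0 in 18 of 24, with a median of 0.36 (0.58 in the PBS arm). The neutrophil chemokine gene Cxcl1 was at 13.5, 32.1, 22.3 and 20.9 CPM (1.24, 1.07 to 1.43). Csf1, the growth factor of macrophages, was at 831, 1349, 2781 and 1894 CPM (0.70, 0.68 to 0.72). For Csf1 both PBS libraries lay above both BuOE libraries. Il6 was lower, at 54.5, 34.2, 24.8 and 45.1 CPM (-0.67, -0.80 to -0.55), as was Igfbp5, an insulin-like growth factor binding protein, at 2103, 810.1, 639 and 1714 CPM (-1.38, -1.4 to -1.35). In the PBS arm both had the opposite sign, 0.86 and 1.42. Of the NF-kB feedback genes, the inhibitor gene Nfkbia was at 107, 268, 69.2 and 91.6 CPM (1.32, 1.26 to 1.38). Tnfaip3, which encodes the inhibitory enzyme A20, was at 53.9, 98.9, 40.8 and 41.4 CPM (0.87, 0.78 to 0.97), while the subunit genes Nfkb1 (-0.18) and Rela (-0.08) were slightly below 0.

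NRF2 is the factor that induces glutathione and quinone enzymes under oxidants, and its targets were above 0 in 19 of 23, with a median of 0.23. In the PBS arm 2 of 23 were above 0 and the median was -0.40. Nqo1, a quinone reductase, was at 178, 229, 391 and 223 CPM (0.36, 0.31 to 0.41). Hmox1, which degrades haem, was at 1261, 2005, 1686 and 1326 CPM (0.67, 0.65 to 0.69). For Nqo1 the unirradiated PBS library was the high one and the other 3 were closer to each other. Of the 4 members below 0, Gpx2, an epithelial glutathione peroxidase, was the one past 2-fold, at 113, 41.2, 93.6 and 53.1 CPM (-1.45, -1.55 to -1.35). Superoxide dismutases, whose activity the compound mimics, differed little: Sod1 in the cytosol was at 149, 192, 159 and 152 CPM (0.37, 0.31 to 0.43). Sod2 in mitochondria was at 105, 109, 85.9 and 89.7 CPM (0.05, -0.02 to 0.13). The extracellular Sod3 was at 127, 106, 84.3 and 116 CPM (-0.25, -0.32 to -0.18). Cat, which breaks down hydrogen peroxide, was at 121, 134, 152 and 115 CPM (0.14, 0.07 to 0.21). None of 17 superoxide and peroxide enzymes passed 2-fold, and their median was 0.14.

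Cholesterol synthesis genes were below 0 in 21 of 23, with a median of -0.48 and -0.47 in the PBS arm. The irradiated BuOE library was the lowest of the 4 for 21 of 23. Glycolysis and hypoxia genes were above 0 in 22 of 24, with a median of 0.58 and 0.54 in the PBS arm. Adm, a vessel-dilating peptide, was at 56.8, 211, 22.5 and 63.6 CPM (1.89, 1.81 to 1.97). The mitophagy receptor gene Bnip3 was at 105, 215, 43.5 and 120.4 CPM (1.03, 0.97 to 1.10). The carbonic anhydrase gene Car9 was at 56.3, 101, 5.28 and 32.2 CPM (0.84, 0.75 to 0.93). In each the unirradiated PBS library was the lowest of the 4 and the irradiated BuOE library the highest. The glycolytic gene Aldoa was at 1715, 2989.5, 1379.9 and 1696 CPM (0.80, 0.79 to 0.82), while Eno1 (0.13) and Pkm (0.09) differed little. Ero1l, an ER oxidase that hypoxia induces, was at 346, 1164, 72.3 and 345 CPM (1.75, 1.72 to 1.78), named after its values were seen.

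Hypoxia-inducible factors bind the core letters ACGTG. A match lay in 16 of 23 promoters of the glycolysis and hypoxia list, against 28.7% of all kept genes with a promoter. The 16 genes with a match had a median ratio of 0.68 and the 7 without one 0.13. Adm, which had the highest ratio of the list (1.89), was among those without a match. Both groups are small, the motif is short, and the difference was not tested. For the 6 highest members with a match, 1 match each is shown, with flanking bases along the strand of the match and the 5 matched bases in capitals.
Ankrd37: gtgtttgggtACGTGaggccgcagc
Bnip3: cacgcgccgcACGTGccacacgctc
P4ha1: agccctcgctACGTGcgctctgtca
Car9: gacgggctgtACGTGcatcggaaat
Mxi1: tcggcacccgACGTGcactggcggg
Aldoa: ccccgctaggACGTGactcgagcca
The ratios of these genes were 1.05 for Ankrd37, a hypoxia-induced ankyrin repeat gene, 1.03 for Bnip3, 0.89 for P4ha1, 0.84 for Car9, 0.83 for the MYC antagonist gene Mxi1 and 0.80 for Aldoa.

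**Figure D5:**
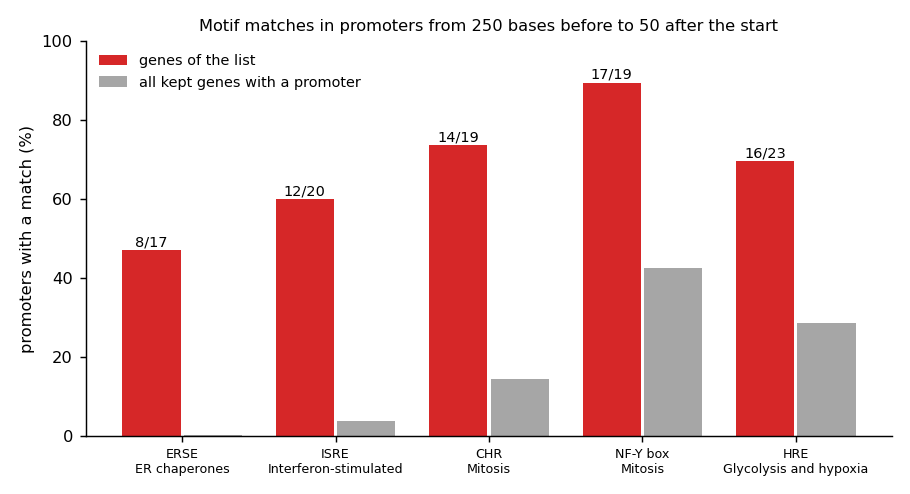
Share of promoters with a motif match (y axis, percent) in genes of a list (red, counts above the bars) and in all kept genes with a promoter (grey) for 5 motifs and lists (x axis), where NF-Y box stands for the CCAAT box. The ER stress response element was found in 8 of 17 ER chaperone genes against 0.149% of all genes, and the hypoxia core in 16 of 23 against 28.7%.

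Genes of the circadian clock and of the glucocorticoid response were examined after their values were seen. The clock repressor gene Nr1d1 was at 82.5, 233, 45.9 and 57.3 CPM (1.5, 1.43 to 1.56). The clock output gene Dbp was at 13.0, 31.4, 6.47 and 9.24 CPM (1.27, 1.09 to 1.45). Per1 was at 52.9, 117, 30.1 and 40.9 CPM (1.14, 1.05 to 1.23). The driver genes Arntl (-0.08) and Clock (-0.08) were near 0, and 12 of 16 clock genes were above 0. Of 10 glucocorticoid-responsive genes 9 were above 0, with Zbtb16 at 12, 37.0, 7.19 and 8.84 CPM (1.62, 1.45 to 1.81), while the sensitive target Fkbp5 was at 92.9, 71.4, 106 and 100.4 CPM (-0.38, -0.47 to -0.29). The 15 highest ratios at a mean level of 10 CPM or more also included the brain cytoplasmic RNA Bc1 at 6.00, 35.1, 1.81 and 30.3 CPM (2.53, 2.31 to 2.79). The autophagy-linked Depp1 was at 16.1, 69.8, 2.21 and 14.7 CPM (2.11, 1.97 to 2.27). The small GTPase gene Rnd1 was at 7.72, 33.5, 9.84 and 13.5 CPM (2.11, 1.90 to 2.33). Angptl7 was at 9.24, 38.3, 33.9 and 24.0 CPM (2.04, 1.86 to 2.25). The endothelial early response gene Apold1 was at 18.5, 69.2, 8.62 and 22.3 CPM (1.90, 1.76 to 2.04). The prolactin-family gene Prl2c3 was at 2.44, 14.6, 26.3 and 7.75 CPM (2.55, 2.22 to 2.96). It shares most of its sequence with Prl2c2 (1.54), so the split of reads between them is uncertain.

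The arms share no library, and the difference of their ratios has no test. By that difference, the ratio in the BuOE arm exceeded that in the PBS arm by 2-fold or more in 388 genes and fell short of it by as much in 1258. Of the 709 genes lower in the BuOE arm, 280 were past 2-fold in the opposite direction in the PBS arm and 38 in the same direction. Of the 326 higher genes, 80 were past 2-fold in the same direction there and 20 in the opposite one. Over all genes, 5.62% were past 2-fold upward and 1.02% downward in the PBS arm. The 8 lowest differences at a mean level of 10 CPM or more ran from -9.64 for Prph to -7.52 for Sv2c and included Vip, Nos1, Syt4 and Rab3c. The highest was that of the acute phase gene Hp, at a difference of 8.03, which stood at 3.00, 4.16, 365 and 1.85 CPM, so that the unirradiated PBS library set it. With the difference between the arms in parentheses, the next were the haemoglobin gene Hbb-bs (5.02), the adipocyte genes Plin4 (3.33) and Fabp4 (2.65), Nptx1 (2.68), the immunoglobulin gene Ighm (2.54) and the paralogs Prl2c3 (4.31) and Prl2c2 (2.75). Each of these 8 was highest in the unirradiated PBS library.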

How the data were processed

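RNA from 4 prostate cell cultures was sequenced in bulk, 1 library per condition. The authors deposited raw read counts by gene, made with featureCounts on GRCm39 per the submitters' processing notes. Those notes also list Trim Galore (0.6.4), Salmon (1.4.0), FastQC and edgeR (4.2.2), with no role. How strand and multiply mapped reads were handled is not stated there. Groups follow the labels' treatment field. Library totals were multiplied by TMM factors from edgeR 4.0.16 in R 4.3.3, which were 0.987 for PBS, 1.05 for BuOE, 0.992 for irradiated PBS and 0.972 for irradiated BuOE. Log2 ratios used a prior count of 2 (numpy 2.4.6, pandas 2.3.3), intervals are exact binomial at 95% (scipy 1.17.1), and the steps were tested on simulated counts. Genes were kept at a mean CPM of at least 1. Symbols and biotypes come from GENCODE M21 (GRCm38), joined by gene ID, and 4675 IDs had none. Promoters come from RefSeq (GRCm38.p6), so their coordinates are not of the files' build.

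The members and lists were chosen with earlier results of these data known. The text names the genes with the 15 highest and 15 lowest ratios at a mean level of 10 CPM or more (without gene models, pseudogenes, ribosomal and small RNA genes), the 8 highest and 8 lowest arm differences, 20 fixed genes of fibrosis, p53, proliferation and redox response, and, from the lists, members that are most expressed, most extreme or past 2-fold. Others named were chosen after their values were seen. No test was possible with 1 library a side, so counts past 2-fold are given beside their share among all genes. DESeq2 1.42.0 gave alternative size factors. Some genes that the naming rule selects are not reported here.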

Additional observations from a re-analysis of the deposited data

Results flagged for a closer look

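In 5 gene lists the members lay on opposite sides of 0 in the BuOE and PBS arms, in at least 80% of members in each arm and with both medians at least 0.3 from 0. The difference of the list medians, BuOE arm minus PBS arm, was -0.845 for fibrillar collagens, -1.21 for collagen VI and fibril-associated collagens, -6.24 for neuronal vesicle and synapse genes, -5.86 for autonomic neuron genes and -2.64 for Schwann cell markers. The difference was not tested, since each arm has 1 library a side.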

How the results depend on the processing

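No paired analysis was possible because each condition has 1 library, and for the same reason no replicate could be left out. With no filter on low values, 2171 genes were at least 2-fold higher and 2009 lower in the BuOE arm, 2330 and 1404 in the PBS arm, and 3043 and 4048 by the difference of the arms. At a mean of at least 10 CPM these counts were 118 and 180, 245 and 43, and 132 and 390. Counted only where the counting interval also lay past 2-fold, the BuOE arm had 135 higher and 424 lower genes. Leaving out genes 2-fold above each other library, an alternative chosen after seeing the data, gave 439 lower genes (BuOE library) and 169 higher genes (irradiated BuOE library). With counts of protein-coding genes as denominator, mitochondrially encoded mRNAs took 0.413% in PBS (0.403% of all counts), 0.745% in BuOE, 0.884% in irradiated PBS (0.864% of all counts) and 2.71% in irradiated BuOE. Counts under DESeq2 size factors, the other scalings and prior counts of 0.5 or 5 stayed within 1.5 times. Of 782 genes named or listed, 127 changed sign in at least 1 setting, none with a ratio above 0.12 in size and none of the 126 past 2-fold. Of 54 list medians, 12 changed sign, all of at most 0.124 in size. The median of autonomic neuron genes was -1.34 at a mean of at least 10 CPM. Genes under 10 CPM make up 529 of the 709 lower and 208 of the 326 higher genes, and counting error is largest there.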

Other observations

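Gene models of the annotation class TEC, short and mostly unspliced stretches annotated in or near other genes, were higher in the irradiated BuOE library. Of 144 kept, 23 were at least 2-fold higher, against 2.27% of all genes, and none 2-fold lower. Their median ratio was 0.48, against 0.07 in the PBS arm. Processed pseudogenes, which lie in the genome as copies of spliced mRNAs, had a median of 0.25 in 144 genes against -0.14 in the PBS arm, and protein-coding genes of -0.04 in 13359. Reads of pseudogenes can stem from their parent genes, and the part of read assignment in these medians was not tested.

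Kcnq1ot1, an unspliced nuclear RNA of an imprinted locus, was at 22.4, 38.6, 29.3 and 30.9 CPM (0.78, 0.64 to 0.93), and H19, an imprinted growth-linked RNA, had a ratio of 0.79 (0.56 to 1.03). With Malat1 and Neat1 they are 4 long non-coding RNAs above 0 in the BuOE arm, chosen after their values were seen. The median over all 167 kept long intergenic RNAs was 0.03.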
